A study of Mus musculus with 12 samples.

Results

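The 10 genes described here encode the elastic fibre proteins elastin, the fibrillins and the fibulins, together with the latent TGF-β binding proteins. They were taken by symbol (Eln, Fbn1, Fbn2, Fbln1, Fbln2, Fbln5 and Ltbp1 to Ltbp4) from the 35275 genes of the deposited count table, and all 10 were found. After removal of low counts 9 of them remained among the 15150 genes tested, and Fbn2 did not.

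RNA-Seq was carried out on mouse cardiac fibroblasts at passage 2, grown from hearts of 12-week-old C57BL/6 mice (C57BL/6J in the study's methods) with a floxed Smad7 gene. Every culture carried the floxed allele and received an adenovirus at 100 MOI for 48 hours. The sample titles call the control cells wild type. Control cells received a virus that the labels call GFP and the study's methods call empty, and Smad7-KO cells received Cre. Cre and the deletion of Smad7 thus came together, and their effects cannot be told apart. Smad7 loss below stands for Smad7-KO against control cells. Cells were then left unstimulated or given 10 ng/ml TGF-β1, for 2 hours by one label and 4 hours by another, which gave control and Smad7-KO cells in both states, with 3 libraries for each of the 4 conditions. The submitters call the 3 samples of a condition independent but do not say whether these came from separate mice. The p values thus measure only a spread between samples, which the statistical model shared over all 4 conditions. How Smad7 loss and TGF-β1 affect the fibroblast transcriptome is the question the series was designed for.

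An elastic fibre has a core of cross-linked elastin on a scaffold of fibrillin microfibrils, and fibulins help to place elastin on that scaffold. Latent TGF-β binding proteins resemble fibrillins, and several of them tie the inactive TGF-β complex to the matrix, from which the growth factor is later released. Smad7 is an inhibitor of TGF-β signalling that is itself induced by TGF-β.

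Smad7 mRNA, the targeted transcript, averaged 74.4 CPM (counts scaled to the library total by TMM) in unstimulated control cells against 29.4 CPM after Cre, and 146 CPM against 76.8 CPM when TGF-β1 was given. It was lower in Smad7-KO cells in both states, by log2 fold changes of -1.34 and -0.92. Libraries held 19056916 to 25371321 counts. The unstimulated control libraries varied most, with a biological coefficient of variation of 0.333 against 0.0529 to 0.138 in the other conditions. Since the spread of a gene was shared over the 4 conditions, a p value also reflects libraries outside its comparison. Fibroblast markers (8 genes) summed to 7331 to 11351 CPM, but macrophage markers (7 genes) summed to more in every condition, 14229 to 22896 CPM. Cardiomyocyte markers (6 genes) summed to 17.9 to 77.7 CPM.

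Per gene length, the fibulin Fbln2 was the most abundant of the 10 genes in every condition. Its level in unstimulated control cells was 485 ± 187 FPKM (fragments per kilobase of gene length, scaled to the library total; SD, n = 3), which ranked 131 of all 35275 genes. Fbln5 at 49.3 ± 12.8 FPKM, Ltbp3 at 49.0 ± 10.9 FPKM and Fbn1 at 41.1 ± 25.1 FPKM followed, and their libraries overlapped. Ltbp4 (19.2 ± 6.90 FPKM) and Eln (12.0 ± 4.77 FPKM) came next and overlapped each other. Fbln1 (4.59 ± 0.557 FPKM), Ltbp1 (3.59 ± 0.930 FPKM) and Ltbp2 (2.38 ± 1.22 FPKM) were the lowest of the tested genes. In this order, neighbouring genes had overlapping libraries except between Fbln2 and Fbln5, between Eln and Fbln1 and between Ltbp2 and Fbn2.

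Eln moved furthest in this order. In TGF-β1 control cells it reached 55.5 ± 3.15 FPKM, close to Fbn1 at 50.04 ± 12.9 FPKM. In unstimulated Smad7-KO cells it was at 2.44 ± 0.207 FPKM, below Fbln1 at 4.44 ± 0.333 FPKM, and only Ltbp2 and Fbn2 were lower.

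**Figure D1:**
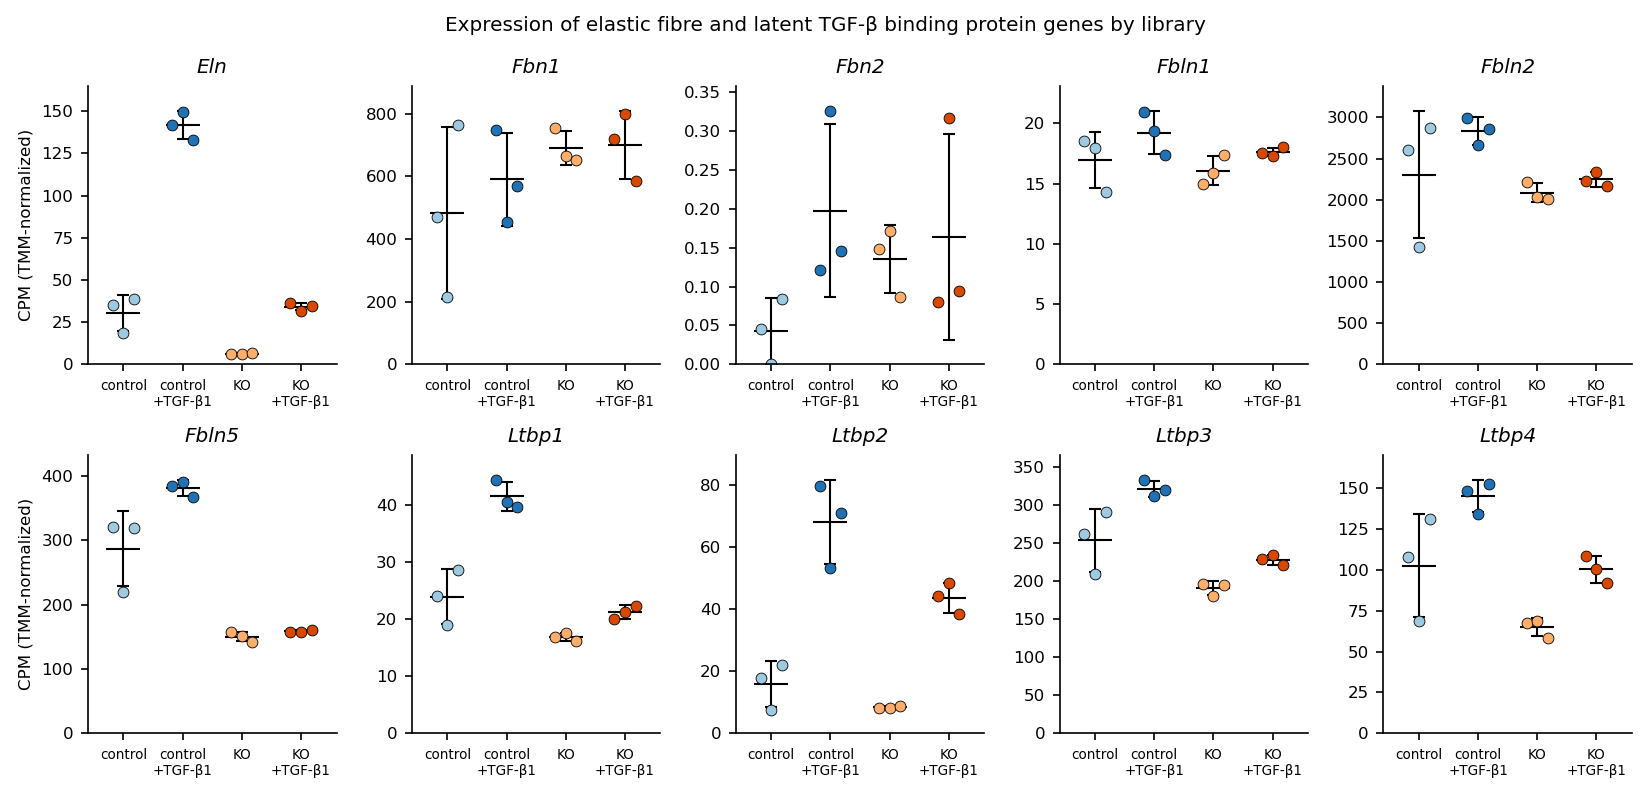
TMM-normalized CPM of the 10 genes in the 12 libraries, with 3 libraries per condition as points, the mean as a horizontal line and the SD as bars; each axis starts at 0 and has its own scale. Eln lay between 133 and 149.7 CPM in TGF-β1 control and between 5.90 and 6.85 CPM in unstimulated Smad7-KO libraries, while Fbn2 stayed under 1 CPM.

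Promoter sequence was compared for the members with a RefSeq entry (GRCm38.p6), which were 8 of the 10: Fbn1, Fbln1, Fbln2, Fbln5 and Ltbp1 to Ltbp4. Each entry runs from 250 bases before to 50 bases after a transcription start. Where a gene had several, the one whose start lay nearest the gene's 5′ boundary in the count table is used. The letters CAGAC, the core of the element bound by Smad3 and Smad4, were searched on both strands. They were in the windows of 5 of the 8 genes (Fbln1, Fbln5, Ltbp1, Ltbp2 and Ltbp3), against 49.6% of 32851 RefSeq promoters of the same length, so that this share is near the background. The palindrome GTCTAGAC was in none of the 8 and in 0.213% of all promoters. The AP-1 letters TGACTCA were in 1, Ltbp3, against 5.2% of all. Below are the promoters of 3 genes called in some comparison, Ltbp2, Ltbp1 and Fbln5, and of Fbn1, called in no comparison and without a match. Of the genes not shown, Fbln1 (called in no comparison) and Ltbp3 (called with Smad7 loss) had matches. Fbln2 (called in no comparison) and Ltbp4 (called with Smad7 loss in unstimulated cells) had none, and Eln has no entry. Capitals mark CAGAC or its reverse complement GTCTG, and each is written 5′ to 3′ on the gene's strand, for Ltbp2 chr12:84876442-84876741 (minus strand), for Ltbp1 chr17:75005279-75005578 (plus strand), for Fbln5 chr12:101819070-101819369 (minus strand) and for Fbn1 chr2:125506389-125506688 (minus strand).
Ltbp2: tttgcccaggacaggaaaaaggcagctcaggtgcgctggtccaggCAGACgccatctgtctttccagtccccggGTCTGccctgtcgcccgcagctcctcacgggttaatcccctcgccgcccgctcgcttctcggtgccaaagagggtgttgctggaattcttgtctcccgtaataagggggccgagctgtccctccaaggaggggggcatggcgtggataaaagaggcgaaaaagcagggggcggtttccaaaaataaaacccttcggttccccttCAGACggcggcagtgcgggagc
Ltbp1: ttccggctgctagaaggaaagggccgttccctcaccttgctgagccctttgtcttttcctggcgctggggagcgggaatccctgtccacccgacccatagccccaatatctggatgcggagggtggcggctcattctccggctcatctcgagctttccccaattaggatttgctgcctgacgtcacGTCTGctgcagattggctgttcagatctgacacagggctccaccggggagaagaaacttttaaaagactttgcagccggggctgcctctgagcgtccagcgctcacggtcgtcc
Fbln5: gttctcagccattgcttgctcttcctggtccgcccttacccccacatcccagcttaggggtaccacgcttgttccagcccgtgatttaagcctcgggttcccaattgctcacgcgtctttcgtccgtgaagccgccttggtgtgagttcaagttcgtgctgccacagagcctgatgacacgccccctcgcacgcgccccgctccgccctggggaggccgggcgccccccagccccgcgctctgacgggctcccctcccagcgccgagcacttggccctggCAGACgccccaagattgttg
Fbn1: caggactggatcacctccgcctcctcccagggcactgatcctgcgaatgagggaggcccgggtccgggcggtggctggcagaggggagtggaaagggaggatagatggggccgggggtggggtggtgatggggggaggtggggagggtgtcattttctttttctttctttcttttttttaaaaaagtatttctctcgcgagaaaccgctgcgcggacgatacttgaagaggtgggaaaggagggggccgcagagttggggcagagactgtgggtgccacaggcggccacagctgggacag
The Ltbp2 window held the letters at positions -205, -176 and 29 from the start, the Ltbp1 window at -64 and the Fbln5 window at 31. The last bases of these Ltbp1 and Fbln5 windows were not found in an annotated transcript of the gene. Those of their other entries were, with the letters at -148 and -97 for Ltbp1 and at -199 and -15 for Fbln5. The start used for Fbn1 lay 1555 bases from the boundary in the count table. These matches are a description of the letters and not of binding.

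TGF-β1 raised 3 of the 9 tested genes in control cells, Eln, Ltbp2 and Ltbp1, and lowered none. Over all genes tested 8.37% were called by edgeR's quasi-likelihood test at an adjusted p of 0.05 or less, and 5.04% were called upward. All 9 log2 fold changes were above 0, with a median of 0.41 against -0.03 over all tested genes. In bulk RNA a change in the share of a cell type and a change in RNA per cell cannot be told apart.

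Eln (ENSMUSG00000029675, chromosome 5, 134703781 to 134747241, minus strand) encodes elastin, the extensible core of the fibre. It was at 35.1, 18.4 and 38.4 CPM in the unstimulated control libraries and at 142, 149.7 and 133 CPM with TGF-β1. All stimulated libraries were above all unstimulated ones, by a log2 fold change of 2.21 (SE 0.217, adjusted p = 6.78e-05, edgeR), or 4.61-fold. In Smad7-KO cells Eln was at 5.90, 5.97 and 6.85 CPM unstimulated and at 36.2, 31.7 and 34.8 CPM with TGF-β1. The groups again did not overlap, and the log2 fold change was 2.45 (SE 0.228, adjusted p = 3.66e-05, edgeR).

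Fbn1 (ENSMUSG00000027204, chromosome 2, 125300594 to 125507993, minus strand) encodes fibrillin-1, the main structural protein of microfibrils. Its levels were 469, 215 and 766 CPM in unstimulated control and 749.9, 454 and 568 CPM in TGF-β1 control libraries, and these overlapped. The log2 fold change was 0.29 with a 95% interval from -0.47 to 1.05 (adjusted p = 0.685, edgeR). In Smad7-KO cells it was 0.02 with an interval from -0.74 to 0.78. Fbn2 (chromosome 18), for a fibrillin prominent in development, had 0 to 8 counts in a library, with 3 and 14 counts in all over the control libraries without and with TGF-β1, and 9 and 11 over the Smad7-KO libraries. It was left out by the filter on low counts, and without that filter it passed in no comparison, with adjusted p values of 0.432 to 1 by edgeR. With TGF-β1 in control cells the log2 fold change was then 1.99 (SE 1.06), so that a difference was not detectable at this depth.

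Of the fibulins, none passed the test with TGF-β1 in control or Smad7-KO cells. Fbln5 (ENSMUSG00000021186, chromosome 12, 101746565 to 101819055, minus strand) encodes fibulin-5, which binds elastin and cross-linking enzymes during fibre assembly. In control cells it was at 321, 219 and 319 CPM unstimulated and at 384, 391 and 367 CPM with TGF-β1. These groups did not overlap, but the log2 fold change of 0.41 (SE 0.132) did not pass the test (adjusted p = 0.0859, edgeR). Fbln2 (ENSMUSG00000064080, chromosome 6, 91212455 to 91272540, plus strand), a fibulin of basement membranes and elastic tissue, was at 2606, 1426 and 2877 CPM and at 2996, 2660 and 2861 CPM. Fbln1 (ENSMUSG00000006369, chromosome 15, 85205949 to 85286535, plus strand), a fibulin of many matrices and of plasma, was at 14.3 to 18.6 CPM and at 17.4 to 20.9 CPM. Both overlapped between the states, with log2 fold changes of 0.30 and 0.18.

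Ltbp2 (ENSMUSG00000002020, chromosome 12, 84783212 to 84876532, minus strand) encodes the member of its family that does not bind latent TGF-β and is tied to microfibrils. In control cells it was at 17.9, 7.60 and 22.1 CPM unstimulated and at 79.7, 53.2 and 70.8 CPM with TGF-β1. In Smad7-KO cells it was at 8.18, 8.07 and 8.72 CPM unstimulated and at 44.2, 48.2 and 38.4 CPM with TGF-β1. No library of one state reached the other, and Ltbp2 rose by log2 fold changes of 2.09 (SE 0.300, adjusted p = 0.000924) in control and 2.39 (SE 0.308, adjusted p = 0.000369, edgeR) in Smad7-KO cells.

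Ltbp1 (ENSMUSG00000001870, chromosome 17, 75005568 to 75392512, plus strand) encodes the first described carrier of the latent TGF-β complex. In control cells it was at 24.0, 19.03 and 28.6 CPM unstimulated and at 44.3, 40.4 and 39.6 CPM with TGF-β1. The groups did not overlap and the log2 fold change was 0.79 (SE 0.136, adjusted p = 0.0031, edgeR). In Smad7-KO cells the libraries were at 16.8, 17.6 and 16.2 CPM and at 19.9, 21.2 and 22.4 CPM. They did not overlap either, but the log2 fold change of 0.33 (SE 0.137) did not pass the test (adjusted p = 0.2, edgeR).

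Ltbp3 (ENSMUSG00000024940, chromosome 19, 5740904 to 5758532, plus strand) and Ltbp4 (ENSMUSG00000040488, chromosome 7, 27305136 to 27337692, minus strand) encode the other TGF-β carriers, and the product of Ltbp4 also takes part in elastin assembly. Neither passed the test with TGF-β1, although their groups did not overlap in control or Smad7-KO cells. Ltbp3 had log2 fold changes of 0.34 (adjusted p = 0.104) in control and 0.26 (adjusted p = 0.238, edgeR) in Smad7-KO cells. Ltbp4 had log2 fold changes of 0.50 (adjusted p = 0.148) and 0.63 (adjusted p = 0.0571, edgeR). In Smad7-KO cells Ltbp3 was called higher under 6 and Ltbp4 under 8 of 24 alternative fits. The shares of all tested genes called under the alternatives are given at the end. Reads of Ltbp3 are uncertain in part, since whether the counting used strand is not stated.

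In Smad7-KO cells as a whole, TGF-β1 thus raised 2 of the 9 genes, Eln and Ltbp2, where 10.2% of all tested genes were called and 5.33% were called upward. All 9 log2 fold changes were above 0, with a median of 0.26 against -0.01 over all tested genes. Groups did not overlap for 6 of the 9 genes in control cells (19.8% of all tested genes) and for 6 of the 9 in Smad7-KO cells (39% of all tested genes). Without unstimulated control library 3, 6 genes passed in control cells (Fbln5, Ltbp3 and Ltbp4 in addition), while the share of all tested genes called rose as well, from 8.37% to 22.3%. Without unstimulated control library 2, 5 passed in Smad7-KO cells (Ltbp1, Ltbp3 and Ltbp4 in addition), while the share of all tested genes went from 10.2% to 16.3%. By edgeR on only the 6 Smad7-KO libraries 5 passed as well, with 26.3% of all tested genes called.

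**Figure D2:**
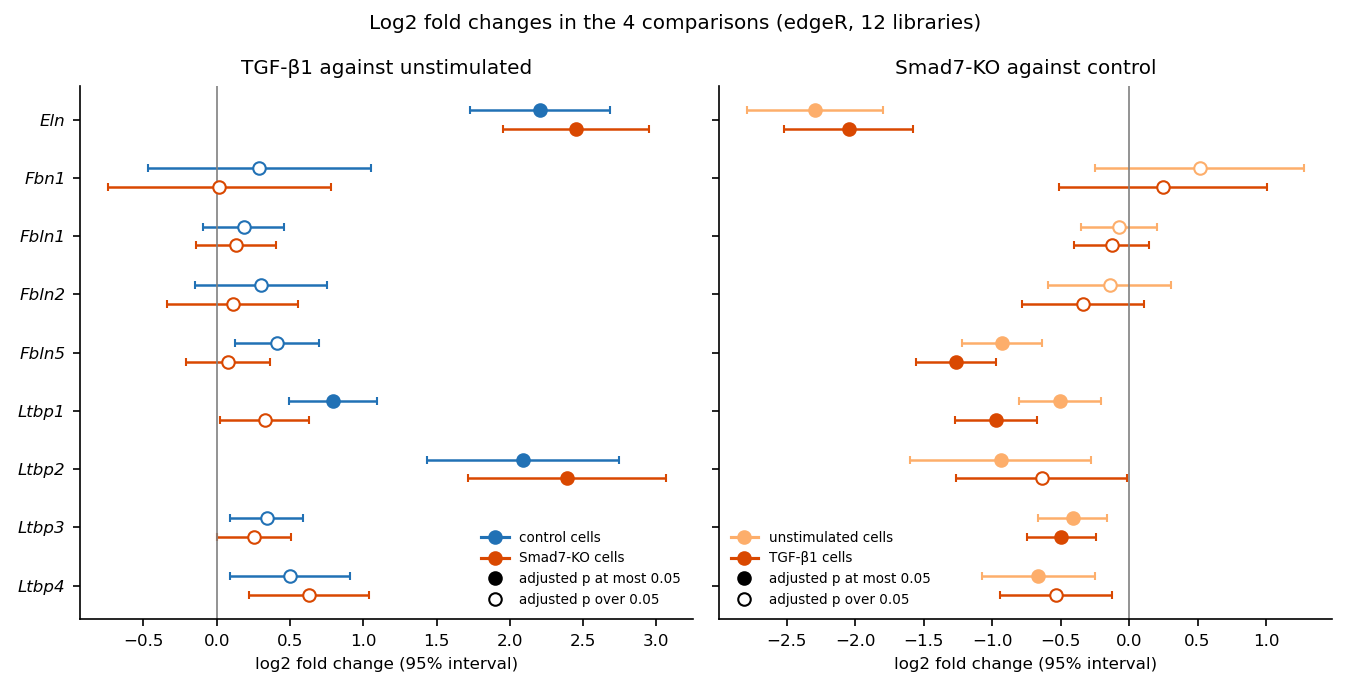
Log2 fold changes of the 9 tested genes with 95% intervals from the edgeR model, for TGF-β1 against unstimulated cells (left) and Smad7-KO against control cells (right); filled points have an adjusted p of at most 0.05 and open points do not. Eln lay above 2 with TGF-β1 and below -2 in Smad7-KO cells, and the intervals of Fbn1, Fbln1 and Fbln2 included 0 in all 4 comparisons.

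In unstimulated cells 6 of the 9 genes, Eln, Fbln5 and Ltbp1 to Ltbp4, were lower in Smad7-KO than in control cells, and none was higher. Over all genes tested 25.8% were called and 13.7% were called downward. With TGF-β1 4 of the 9, Eln, Fbln5, Ltbp1 and Ltbp3, were lower in Smad7-KO cells. There 13% of all tested genes were called and 7.23% were called downward. The median log2 fold changes of the 9 genes were -0.50 and -0.53, against -0.02 over all tested genes in both. Groups did not overlap for 5 of the 9 genes in unstimulated cells (41.3% of all tested genes) and for 7 of the 9 in TGF-β1 cells (44.9%).

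Eln showed the largest difference of the 9 in both states. Its log2 fold change in Smad7-KO cells was -2.30 unstimulated (SE 0.227, adjusted p = 0.000109), 20.4% of the control level, and -2.05 with TGF-β1 (SE 0.215, adjusted p = 0.000186, edgeR), 24.2% of the control level. No Smad7-KO library reached a control library of the same state. The TGF-β1 Smad7-KO libraries, at 31.7 to 36.2 CPM, lay within the range of the unstimulated control libraries, at 18.4 to 38.4 CPM.

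Fbln5 was the other gene called under every alternative in both states. Its 3 unstimulated Smad7-KO libraries were at 157, 151 and 143 CPM, against 219 to 321 CPM in control, a log2 fold change of -0.93 (SE 0.133, adjusted p = 0.00104, edgeR). With TGF-β1 they were at 158, 158 and 160.4 CPM, against 367 to 391 CPM, a log2 fold change of -1.26 (SE 0.134, adjusted p = 0.000192, edgeR). The Smad7-KO libraries with and without TGF-β1 were thus close, and both lay below all control libraries. Fbln2 (log2 fold changes -0.14 and -0.34) and Fbln1 (-0.07 and -0.13) did not pass the test in either state.

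Ltbp1 was lower in Smad7-KO cells by a log2 fold change of -0.50 unstimulated (SE 0.137, adjusted p = 0.0246, edgeR) and of -0.97 with TGF-β1 (SE 0.137, adjusted p = 0.00117, edgeR). With TGF-β1 the 3 Smad7-KO libraries, at 19.9 to 22.4 CPM, were all below the 3 control libraries, at 39.6 to 44.3 CPM. Ltbp3 was at 197, 181 and 196 CPM in unstimulated Smad7-KO libraries against 262, 209 and 291 CPM in control, and fell by 0.41 on the log2 scale (adjusted p = 0.027, edgeR). With TGF-β1 it was at 229, 234 and 221 CPM against 333, 313 and 319.6 CPM, and fell by 0.50 (adjusted p = 0.0163, edgeR). The groups did not overlap in either state. Ltbp4 was at 67.5, 68.6 and 58.5 CPM against 108, 68.8 and 131 CPM unstimulated, a log2 fold change of -0.66 (adjusted p = 0.0286, edgeR), with unstimulated control library 2 just above the highest Smad7-KO library. With TGF-β1 it was at 108, 100.4 and 92.3 CPM against 148, 134 and 153 CPM, and the log2 fold change of -0.53 did not pass the test (adjusted p = 0.0851, edgeR). Ltbp2 had a log2 fold change of -0.94 in unstimulated cells (adjusted p = 0.0433, edgeR), although control library 2 at 7.60 CPM was below every Smad7-KO library, and of -0.64 with TGF-β1 (adjusted p = 0.166, edgeR). By edgeR on only the 6 TGF-β1 libraries, Ltbp4 (adjusted p = 0.0035) and Ltbp2 (adjusted p = 0.0116) were called lower, with 30.8% of all tested genes called. On only the 6 unstimulated libraries edgeR called 2 of the 9 genes and 4.54% of all tested genes.

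These calls of Ltbp1 to Ltbp4 in unstimulated cells were less stable than those of Eln and Fbln5. Only Eln and Fbln5 were called without unstimulated control library 1 or without any 1 of the 3 unstimulated Smad7-KO libraries, where 9.9% to 12.9% of all tested genes were called in place of 25.8%. Without unstimulated control library 2, all 6 genes and Fbln2 were called, where 19.4% of all tested genes were, and the log2 fold change of Ltbp2 was -1.26. Ltbp2 also lost its call without unstimulated control library 3 (log2 fold change -0.62, adjusted p = 0.0821, edgeR), and Fbn1, at 1.02, was then called higher in a fit that called 51.5% of all tested genes. Leaving out libraries of the TGF-β1 conditions ended the call of Ltbp2 as well, with adjusted p values of 0.052 to 0.0637 for 5 of those 6 libraries (edgeR). In TGF-β1 cells the call of Ltbp3 was lost without any 1 of the 6 libraries compared, at adjusted p values of 0.0524 to 0.0643 (edgeR) and with 5.7% to 9.35% of all tested genes called, and 7 genes were called without unstimulated control library 2, where the share of all tested genes rose from 13% to 28.8%. Under no alternative was any of the 9 called higher with Smad7 loss except Fbn1.

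In Smad7-KO libraries Fbn1 was at 755, 667 and 652 CPM unstimulated and at 718, 798 and 584 CPM with TGF-β1, and it overlapped with control in both states. Its log2 fold changes were 0.52 with a 95% interval from -0.25 to 1.28 (adjusted p = 0.267) and 0.25 with an interval from -0.52 to 1.01 (adjusted p = 0.66, edgeR). The FPKM ratio of Eln to Fbn1, the core protein against its scaffold, was 0.325 ± 0.0839 in control cells unstimulated and 1.16 ± 0.332 with TGF-β1, against 0.0421 ± 0.00627 and 0.231 ± 0.0460 in Smad7-KO cells (SD, n = 3). Except for the unstimulated control and TGF-β1 Smad7-KO libraries, no conditions overlapped in this ratio.

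Log2 fold changes varied with gene length across the whole transcriptome, with Smad7 loss and also with TGF-β1 in control cells. In unstimulated cells the 5050 longest tested genes had a median log2 fold change of 0.29 and the 5050 shortest of -0.39, and 8 of the 9 genes here were longer than the median of 3007 bases. When each library's trend on length was removed, Ltbp1 to Ltbp4 were at -0.90, -1.29, -0.69 and -0.94 and Fbln5 at -1.27, Fbn1 moved to -0.0074, and Fbln2 at -0.35 was called in addition, with 29.4% of all tested genes called. With TGF-β1 the same step gave 7 called genes in place of 4, with Fbln2, Ltbp2 and Ltbp4 in addition, and Fbn1 at -0.14, while the share of all tested genes called rose from 13% to 23.2%. All of these called genes were lower in Smad7-KO cells. With TGF-β1 the longest genes had a median of 0.08 and the shortest of -0.21 in control cells, against -0.03 and 0.006 in Smad7-KO cells. With the trend removed, Eln, Ltbp2, Ltbp1 and Fbln5 rose by 2.21, 2.01, 0.67 and 0.30 with TGF-β1 in control cells. Ltbp3 at 0.24 and Ltbp4 at 0.42 were then called in addition, and Fbln5 was not, with 15% of all tested genes called.

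**Figure D3:**
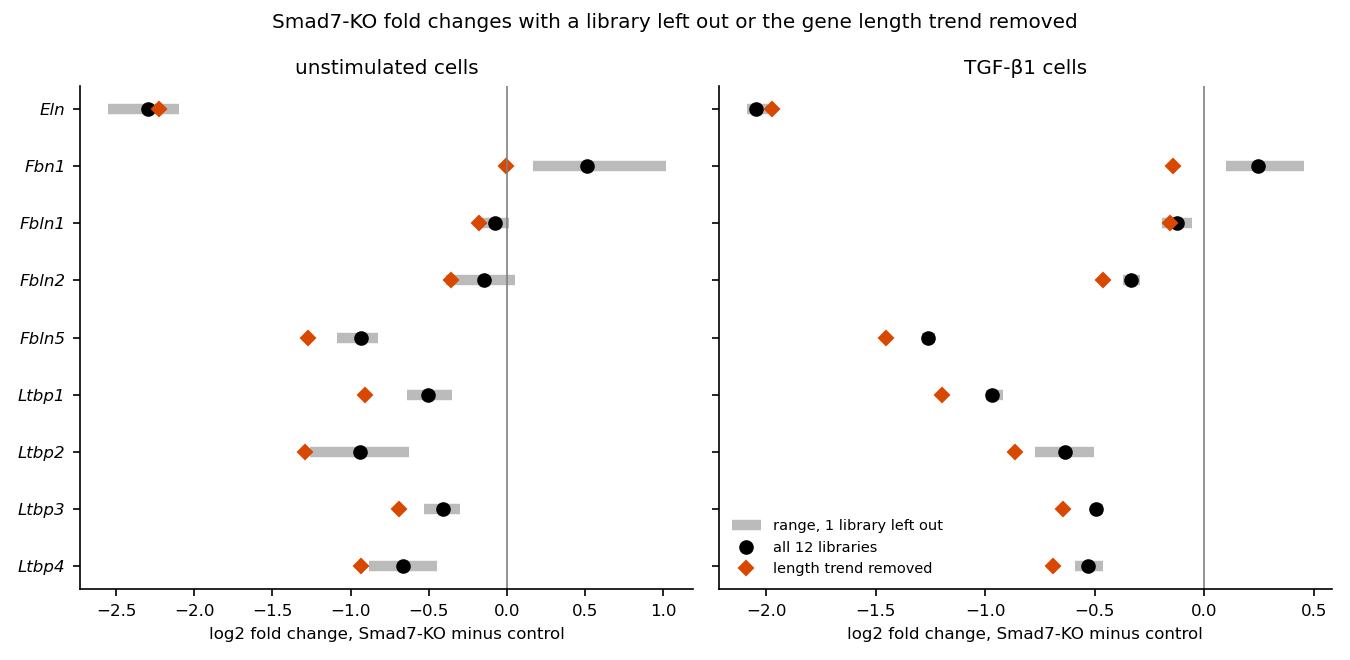
Log2 fold changes of Smad7-KO against control cells for the 9 genes in unstimulated (left) and TGF-β1 cells (right), from all 12 libraries (circles), with the trend on gene length removed (diamonds) and as the range over leaving out each library (grey bars). Ltbp1 in unstimulated cells was at -0.50 with all libraries and at -0.90 without the length trend, whereas Fbn1 moved from 0.52 to -0.0074.

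Cell type markers also moved with Smad7 loss, where 12.1% of all tested genes were higher and 13.7% lower in unstimulated and 5.72% and 7.23% in TGF-β1 cells. Of the 8 endothelial markers 5 were lower and 1 higher in Smad7-KO cells in both states, with their sum between 267 and 317 CPM in control and between 45.2 and 57.9 CPM in Smad7-KO libraries. Smooth muscle and pericyte markers, cells that also make elastin, summed to 29.6 to 32.1 CPM in control libraries unstimulated and 36.6 to 38.0 CPM with TGF-β1, against 17.7 to 23.1 CPM and 24.3 to 28.0 CPM in Smad7-KO libraries, with 2 of the 6 tested of 8 listed lower in unstimulated and 1 of 6 in TGF-β1 cells. Epicardial and mesothelial markers summed to 263 to 310 CPM in control and to 168 to 212 CPM in Smad7-KO libraries, with 4 of 6 lower in unstimulated and 2 of 6 in TGF-β1 cells. Of the macrophage markers 4 of 7 were higher in Smad7-KO cells in both states. Their sums overlapped in unstimulated cells, at 14229 to 22896 CPM in control and 20210 to 22436 CPM in Smad7-KO libraries. With TGF-β1 they did not, at 14276 to 16652 CPM and 19539 to 22252 CPM. No marker of these 4 lists was at 0 in all 3 libraries of a condition, and their part in the fall of Eln, Fbln5 and Ltbp1 to Ltbp4 was not tested. Fibroblast markers were lower for 2 and higher for 1 of 8 in both states.

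Whether the TGF-β1 response differed between Smad7-KO and control cells was tested by the interaction term, which called none of the 9 genes by edgeR or DESeq2, and 0.0198% of all tested genes by edgeR. By edgeR 1 of the 9, Ltbp1, had an unadjusted p under 0.05 (0.033, adjusted p = 0.98), as did 2.59% of all tested genes. Its log2 difference was -0.47, with a 95% interval from -0.89 to -0.04. Eln had a difference of 0.25 with an interval from -0.41 to 0.91, and Fbln5 of -0.33 with an interval from -0.74 to 0.08. Both TGF-β1 comparisons share their libraries with the Smad7-KO comparisons, so that each is given by its own values.

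Within the family, Ltbp3 made up most of the summed Ltbp mRNA per length in all 12 libraries. The sum of Ltbp1 to Ltbp4 was 74.2 ± 19.9 FPKM in control cells unstimulated and 107 ± 6.27 FPKM with TGF-β1, against 53.1 ± 1.51 FPKM and 71.0 ± 2.97 FPKM in Smad7-KO cells (SD, n = 3). The share of Ltbp2 in it was 1.97% to 3.71% in unstimulated control and 7.93% to 10.7% in TGF-β1 control libraries, and 2.23% to 2.46% and 8.25% to 9.62% in the Smad7-KO libraries. That of Ltbp3 was 63.7% to 70.7% and 57.9% to 60.8% in control, and 67.8% to 72.1% and 59.9% to 62.0% in Smad7-KO libraries. In both genotypes the share of Ltbp2 was higher and that of Ltbp3 lower with TGF-β1, without overlap, whereas 3 libraries against 3 cannot give an exact p under 0.1. Among the 3 fibulins Fbln2 held 87.5% to 93.9% of the summed FPKM, and the share of Fbln5 was 8.31% to 11.1% in control and 5.20% to 5.72% in Smad7-KO libraries.

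**Figure D4:**
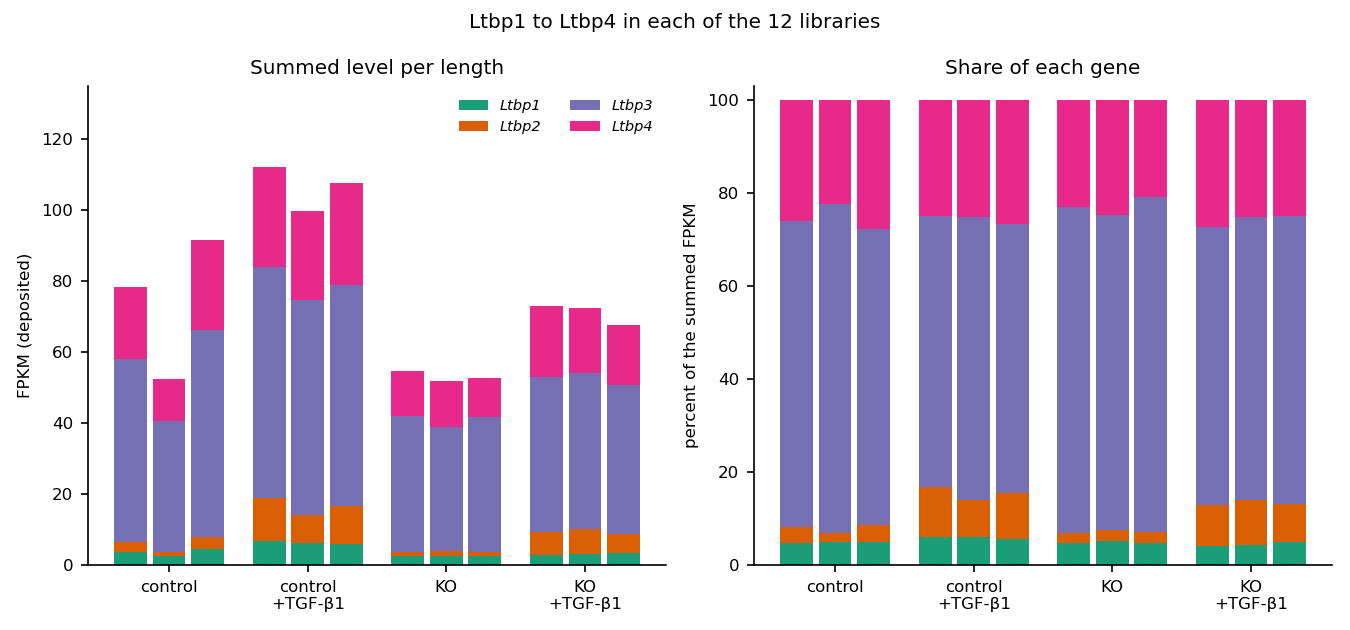
Deposited FPKM of Ltbp1 to Ltbp4 in each of the 12 libraries, stacked as the summed level (left) and as percent of that sum (right), with 3 bars per condition in the order of the replicate numbers. The band of Ltbp2 reached 7.93% to 10.7% in TGF-β1 control and stayed at or under 3.71% in unstimulated control libraries.

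Partners of microfibrils and fibulins were listed as 16 genes, of which 14 were tested (not Emilin3 and Adamts17). With TGF-β1 3 rose and 1 fell in control cells and 4 rose in Smad7-KO cells, with Smad7 loss 1 rose and 6 fell in unstimulated and 1 rose and 4 fell in TGF-β1 cells. Over all tested genes TGF-β1 raised 5.04% and lowered 3.33% in control and raised 5.33% and lowered 4.9% in Smad7-KO cells, and Smad7 loss raised 12.1% and lowered 13.7% in unstimulated and raised 5.72% and lowered 7.23% in TGF-β1 cells. The counts of the lists that follow are to be read against the same shares. Adamtsl2, whose product binds fibrillin-1 and Ltbp1 and restrains TGF-β, had log2 fold changes of 2.21 and 3.20 with TGF-β1 and of -1.55 and -0.55 with Smad7 loss, all 4 past the test. Mfap4, a microfibril-associated protein, had 1.28, 1.42, -0.72 and -0.57 in the same order, all past the test. Efemp1, which encodes fibulin-3, was lower with Smad7 loss at -0.69 and -0.55, whereas Emilin2, an elastin-associated glycoprotein, was higher at 0.60 and 0.48. The median log2 fold changes of the list were -0.02, 0.06, -0.43 and -0.44, with those of all tested genes between -0.03 and -0.01.

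Lysyl oxidases cross-link elastin and collagen, and all 5 were tested. With TGF-β1 3 rose in control and 3 in Smad7-KO cells, namely Loxl1 (0.59 and 0.59), Loxl2 (0.49 and 0.44) and Loxl3 (1.16 and 0.94, log2 fold changes). With Smad7 loss Loxl1 fell by 0.34 and 0.33 on the log2 scale, and Loxl3 fell by 0.70 in TGF-β1 cells. Lox itself had log2 fold changes of 0.49, 0.37, -0.32 and -0.44 and did not pass in any comparison (adjusted p = 0.0744 to 0.174, edgeR). Of 10 proteases able to degrade elastin 8 were tested (not Mmp7 and Elane). Mmp12, macrophage elastase, was lower with TGF-β1 at -0.75 and -0.91, Mmp2 was lower with Smad7 loss at -0.67 and -0.77, and no protease rose in any of the 4 comparisons. Mmp14, the membrane protease that activates Mmp2, and Ctsl, a lysosomal protease, did not pass in any of them.

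Other carriers and activators of latent TGF-β were listed as 16 genes, all tested. With TGF-β1 3 rose and 1 fell in both control and Smad7-KO cells, and with Smad7 loss 3 rose and 4 fell in unstimulated and 3 rose and 2 fell in TGF-β1 cells. Nrros, which anchors latent TGF-β on macrophages, fell by 1.35 and 1.26 with TGF-β1 on the log2 scale and was higher with Smad7 loss at 0.41 and 0.50. Itgb5, an integrin subunit that can release TGF-β from its latent complex, rose with TGF-β1 at 0.93 and 1.24. Itgb3, a related subunit, was higher with Smad7 loss at 0.87 and 0.58, and the ligand Tgfb2 was lower at -0.69 and -0.75. Of 8 early TGF-β targets all 8 rose in control and Smad7-KO cells, among them Pmepa1 (2.16 and 2.56), Bhlhe40 (1.51 and 1.80), Smad7 (0.97 and 1.39) and Ccn2 (1.80 and 2.27, log2 fold changes). With Smad7 loss 4 of these 8, Smad7 itself among them, fell in unstimulated and 3 in TGF-β1 cells, and none rose.

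**Figure D5:**
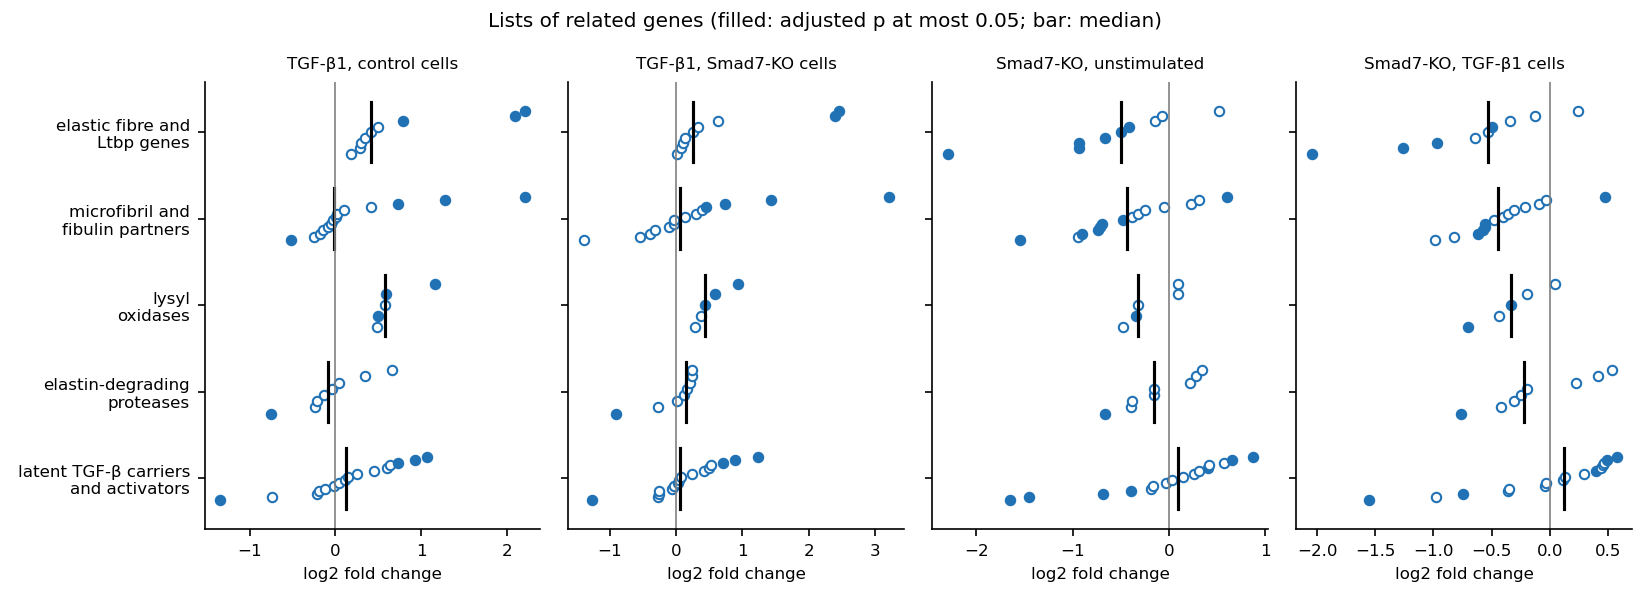
Log2 fold changes of the tested genes of 5 lists in the 4 comparisons, 1 point per gene, filled for an adjusted p of at most 0.05, with the median of each list as a bar. With Smad7 loss the medians of the elastic fibre and Ltbp genes were -0.50 and -0.53, and those of the microfibril and fibulin partners -0.43 and -0.44.

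Across the 12 libraries the log2 CPM of Eln varied most like those of Ltbp3 (Pearson r = 0.94), Ltbp4 (r = 0.94) and Ltbp1 (r = 0.93) among the 9 genes, and its r with Fbn1 was -0.06. These r describe 12 libraries that share 4 conditions and are not independent. Of the 9844 genes whose mean log2 CPM reached 3, those most like Eln were Bag3, Angptl7 and Gja1 (r = 0.99 for each), most like Ltbp2 were Acvr1, Nedd9 and Arhgef40 (0.99 for each), and most like Ltbp1 were Slc12a4 (0.98), Rnf145 (0.97) and Grk5 (0.96). Fbln5 was closest to Txndc5 (0.99), Vnn1 (0.98) and Ccdc80 (0.98), Ltbp3 to Itga3 (0.98), Obsl1 (0.98) and Scarf2 (0.98), and Ltbp4 to Arhgef19 (0.98), Pard6g (0.97) and Creb3l1 (0.97). Fbn1 was closest to Trim44 (0.996), Pkd1 (0.99) and Cep170b (0.99), Fbln2 to Sfxn3 (0.99), Nr1d1 (0.98) and the collagen gene Col1a1 (0.97), and Fbln1 to Med19 (0.88), Nop2 (0.86) and Galnt11 (0.86).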

How the data were processed

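RNA-Seq libraries were made from poly-A RNA and sequenced as 100-bp paired reads. The authors deposited read counts per gene and, in a second table of the same genes, FPKM, which follow from count, gene length and library total without scaling between libraries. The submitters' processing notes name CASAVA, TopHat2 2.0, Cufflinks 2.1.1, HTSeq 0.6.1, mm10 and GRCm38.p6, and strand use is not given in the sources used here. Coordinates are those of the deposited table. Number of libraries and depth (19056916 to 25371321 counts per library) limit the precision.

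Low genes were removed from the counts by filterByExpr (minimum count 10), TMM scaled the libraries, and edgeR 4.0.16 (R 4.3.3) fitted its robust quasi-likelihood model with 4 conditions over all 12 libraries. Adjusted p values are Benjamini-Hochberg values over 15150 genes, called at 0.05 or less, and SE are the coefficient over the root of its F statistic. DESeq2 1.42.0, limma 3.58.1 on log2(FPKM + 1 or 0.1), voom weights, removal of a loess trend on gene length (span 0.3), a replicate block and leaving out each library were alternatives. The fits were run on simulated counts with the same spread in all 4 conditions and no length trend. That run cannot check them for unlike spread or a length trend, both of which these data have.

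The members and lists were chosen with earlier results of these data known. Named are all 10 members, Smad7, up to 4 genes per partner list with the smallest p in any comparison, and for each tested member the 3 genes closest in Pearson r. Matching used symbols, which 122 genes share, and Ccn2 and Adgre1 are listed in the table as Ctgf and Emr1. A gene of the early target list and reads of overlapping genes are not reported here.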

Additional observations from a re-analysis of the deposited data

How the results depend on the processing

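Eln and Ltbp2 with TGF-β1 (both genotypes), Eln and Fbln5 with Smad7 loss (both states) and Ltbp1 with Smad7 loss in TGF-β1 cells were called in the same direction under all 24 alternatives. Shares of all tested genes called are given in brackets. With TGF-β1 in control cells 3 members were called (8.37%), 5 by DESeq2 on all 12 libraries (12.4%) and 5 with the length trend removed (15%). With 1 library left out 3 to 6 were called (5.31% to 22.3%). Ltbp1 lost its call in this comparison by edgeR on only the 6 libraries compared (adjusted p = 0.0856), which called 2 members (2.69%). With TGF-β1 in Smad7-KO cells 2 were called (10.2%), 5 by DESeq2 (24.9%) or edgeR (26.3%) on only 6 libraries and 5 by limma voom (24.9%). With the length trend removed 5 were called (17.3%), and with 1 library left out 2 to 5 (6.34% to 16.3%). With Smad7 loss in unstimulated cells 6 were called (25.8%), 2 by DESeq2 (17.7%) or edgeR (4.54%) on only 6 libraries and 3 by limma voom (12%). By limma 2 were called on log2(FPKM + 1) (28.5%), on log2(FPKM + 0.1) (27.2%) or without a filter (9.25%). With 1 library left out 2 to 7 were called (9.9% to 51.5%). The 7 were called without unstimulated control library 2 (19.4%), and without library 3 6 were called (51.5%). In TGF-β1 cells 4 were called (13%), 7 by DESeq2 (33.5%) or edgeR (30.8%) on only 6 libraries and 7 by limma voom (32.5%). With the length trend removed 7 were called (23.2%), and with 1 library left out 3 to 7 (5.7% to 28.8%). The interaction called 0 under each alternative run. Over all genes the calls were 391 to 3449 (1268 as reported), 985 to 3792 (1550), 660 to 7979 (3907), 883 to 4924 (1962) and 0 to 16 (3). The causes of these shifts were not tested.

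Replicate numbers are shared by the conditions, but the methods name no pairing, so the numbers were not taken to pair the samples. Of 18 pairs with the same number 1 had deviations with a correlation over 0.1 (range -0.357 to 0.524), number 2 of the unstimulated and TGF-β1 control cells. In 8 of the 18 the library correlated best with its own number. With the replicate block 3, 2, 5, 4 and 0 members were called, against 7.31%, 8.73%, 21.3%, 10.7% and 0% of all tested genes. With the block and the length trend removed 4, 5, 6, 7 and 0 were called, against 13.5%, 15.8%, 27.6%, 21.4% and 0.0462%.

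Of 1062 member values under the alternatives 928 kept their direction and side of the threshold, 56 lost and 50 gained a call, and 28, none called as reported, changed direction. Fbn1 with TGF-β1 in control cells ranged from -0.065 (without unstimulated control library 2) to 0.79 over the libraries left out. In Smad7-KO cells it ranged from -0.085 to 0.13, with -0.0068, -0.021 and -0.085 when library 2 or 3 of the unstimulated or library 2 of the TGF-β1 Smad7-KO cells was left out, and it was -0.026 by limma on log2(FPKM + 1), with or without a filter, and -0.027 on log2(FPKM + 0.1). With Smad7 loss Fbn1 was -0.0074 in unstimulated and -0.14 in TGF-β1 cells with the length trend removed, and -0.14 with the block in addition. In unstimulated cells Fbln1 ranged from -0.18 to 0.013 (without control library 1) and Fbln2 from -0.39 to 0.052 (without control library 3). In the interaction, Eln was -0.17 and Ltbp2 -0.074 by limma on log2(FPKM + 1), with or without a filter. With the length trend removed Fbln1 was 0.020 and Ltbp3 0.047, and with the block in addition 0.015 and 0.047. Over the libraries left out, the interaction of Fbn1 ranged from -0.77 to 0.096, of Fbln1 from -0.13 to 0.055, of Fbln2 from -0.39 to 0.071, of Ltbp2 from -0.014 to 0.64, of Ltbp3 from -0.19 to 0.050 and of Ltbp4 from -0.086 to 0.36.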
